A study of Homo sapiens with 4 samples.

Results

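The miR-29 family was examined in PC-3, an established line of human prostate cancer cells, given the secreted peptide apelin or left untreated. Its members were taken by name, as every entry called miR-29a, miR-29b or miR-29c, and 4 of the 1096 listed entries met that rule. These are miR-29a-3p, miR-29c-3p, miR-29b-1-5p and miR-29b-2-5p, and the levels of the family's other arms were not analysed here. There were 2 apelin libraries (PC-3 cells given apelin at 10 µg/mL for 24 h) and 2 control libraries (PC-3 cells whose treatment label reads none, with no vehicle named). All 4 were small RNA libraries from total RNA of cells grown in serum-containing medium, and the stated question was which miRNAs differ under apelin.

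The miR-29 family is known for repressing the mRNAs of collagens, elastin, fibrillin and other proteins of the extracellular matrix, and it also acts on the survival protein MCL1 and on the DNA methyltransferases DNMT3A and DNMT3B. A miRNA pairs with its targets mainly through its seed, bases 2 to 8 from the 5′ end, and miR-29a-3p, miR-29b-3p and miR-29c-3p have the same seed. The hairpin precursors come in pairs, MIR29B1 with MIR29A on chromosome 7 and MIR29B2 with MIR29C on chromosome 1. In several tissues miR-29 is low in fibrosis, where collagen genes are high.

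The mature sequences are shown because they set which members can share targets and which can share reads. They are RefSeq's (GRCh38.p14), found for all 4 entries, with the seed in capitals, and miR-29b-3p is printed for comparison only.
miR-29a-3p: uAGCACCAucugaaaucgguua
miR-29c-3p: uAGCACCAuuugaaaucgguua
miR-29b-3p: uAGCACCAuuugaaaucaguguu
miR-29b-1-5p: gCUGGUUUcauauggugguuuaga
miR-29b-2-5p: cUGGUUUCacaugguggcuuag
Counted from the 5′ end of miR-29a-3p, miR-29c-3p differs from it by 1 substitution, C10U, which lies outside the seed. From miR-29a-3p to miR-29b-3p there are 4 over the 22 bases compared, C10U, G18A, U21G and A22U. The letters AGUGUU, known as a signal for entry of miR-29b into the nucleus, start at base 18 of miR-29b-3p. They are in neither miR-29a-3p nor miR-29c-3p, nor in any of the 452 listed catalogue entries that matched a RefSeq sequence.

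The 5p arms carry other seeds. Set 1 base apart, miR-29b-1-5p and miR-29b-2-5p differ by U11C and U19C over 22 bases, counted along miR-29b-1-5p. With the RefSeq starts, their seeds are CUGGUUU and UGGUUUC. No other listed entry with a RefSeq sequence has either of these seeds, and AGCACCA is shared only by miR-29a-3p and miR-29c-3p among them. The mature miR-29b-3p is the same from both of its hairpins, whereas the 5p arms differ, so each 5p entry names its hairpin. The deposited table lists miR-29b-2-5p at 23 nt, against 22 nt in RefSeq, and the other 3 entries have the same length in both. The sources used here do not give at which end the extra base lies. If it were the hairpin base at the 5′ end, the seed would be CUGGUUU, as in miR-29b-1-5p.

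The hairpins are shown to place each counted arm, which is in capitals. All 4 lie on the minus strand (RefSeq, GRCh38.p14).
MIR29A, chr7:130876747-130876810: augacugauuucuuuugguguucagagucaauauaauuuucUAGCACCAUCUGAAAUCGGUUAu
MIR29B1, chr7:130877459-130877539: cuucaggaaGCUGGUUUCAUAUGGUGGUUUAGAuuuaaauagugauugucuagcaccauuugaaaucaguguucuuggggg
MIR29C, chr1:207801852-207801939: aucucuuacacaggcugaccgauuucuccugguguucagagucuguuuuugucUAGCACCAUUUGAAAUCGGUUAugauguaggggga
MIR29B2, chr1:207802443-207802523: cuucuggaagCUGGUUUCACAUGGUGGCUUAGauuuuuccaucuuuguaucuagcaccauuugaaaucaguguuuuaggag
On chromosome 7 the hairpins are 648 bases apart, and on chromosome 1 they are 503 bases apart. In GENCODE release 29 (GRCh38), MIR29C and MIR29B2 both lie in exon 5 of the lincRNA transcript MIR29B2CHG-203. MIR29B1 lies in exon 4 of LINC-PINT-202, another lincRNA, and MIR29A overlaps the end of that exon by 2 bases. Both chromosome 7 hairpins also lie in introns of the lincRNA AC016831.6.

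The libraries held 5322429 to 6014838 counts. The labelled cell type was checked on marker miRNAs: the epithelial miR-200b-3p stood at 6488 and 6467 TPM in apelin libraries, against 6671 and 6915 TPM in control libraries. Its relative miR-200c-3p was low, at 25.9 and 23.0 TPM in apelin libraries, against 33.2 TPM in both control libraries. Of the 7 epithelial names 5 were tested, with both apelin libraries above both controls for 1 (miR-200a-3p), below both for 3 (miR-200b-3p, miR-200c-3p and miR-205-5p) and overlapping for miR-429. miR-203a-3p was listed at 0 in 3 libraries, and miR-141-3p was not analysed here. Of 6 stromal names 4 had levels here. They were at or under 4.16 TPM in every library, apart from miR-10b-5p, which stood at 1847 to 2184 TPM. The neuronal miR-9-5p, 1 of 2 names, stood at 298 to 399 TPM. No red cell, leukocyte, endothelial, muscle or liver marker with a level here was above 37.1 TPM. They were 1 of 3 red cell, 1 of 3 leukocyte, 1 of 2 endothelial, 2 of 3 muscle and 1 of 1 liver names. The other names of these lists were not analysed here. TPM here is a count scaled to 1000000 counts of its library and not divided by length, and the miR-29 entries are listed at 22 to 24 nt. Bulk libraries cannot tell fewer cells with a miRNA apart from less of it per cell.

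Nearly all counts of the 4 miR-29 entries, which do not include miR-29b-3p, were miR-29a-3p, the main strand of the MIR29A hairpin. It stood at 27893 TPM in apelin 1 and 29958 TPM in apelin 2, against 22815 TPM in control 1 and 24669 TPM in control 2. Both apelin libraries were higher than both controls, and the lowest apelin value was 1.13 times the highest control value. Within a group the libraries differed by 1.07 times (apelin) and 1.08 times (control). miR-29a-3p ranked 13th and 8th among the 516 catalogue entries in apelin 1 and 2, against 15th and 14th in control 1 and 2. It made up 98.98% and 99.0% of the counts of the 4 miR-29 entries in the apelin libraries, against 98.8% and 98.9% in the controls, and the 95% Wilson intervals of these shares lay between 98.7% and 99.04%. Intervals on counts cover counting error only.

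miR-29c-3p has the same seed and a far lower count, with 393 to 698 reads of miR-29a-3p for each of its own. It stood at 49.98 TPM (266 counts) in apelin 1 and 76.3 TPM (435 counts) in apelin 2, against 32.8 TPM (197 counts) in control 1 and 35.3 TPM (200 counts) in control 2. The groups did not overlap, and the apelin libraries differed by 1.53 times from each other. Their 95% Poisson intervals, 44.2 to 56.4 TPM in apelin 1 and 69.3 to 83.8 TPM in apelin 2, were apart, so that gap was larger than counting error. The control intervals, 28.3 to 37.7 TPM and 30.6 to 40.6 TPM, overlapped.

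The 5p arm of MIR29B1, miR-29b-1-5p, was the second most abundant of the entries and the only one with a lower mean under apelin. It stood at 188.8 TPM in apelin 1 and 148.2 TPM in apelin 2, against 221.4 TPM in control 1 and 186.1 TPM in control 2. Here the groups overlapped, since apelin 1 lay above control 2. The 5p arm of MIR29B2, miR-29b-2-5p, stood at 47.5 TPM (253 counts) in apelin 1 and 79.1 TPM (451 counts) in apelin 2, against 28.9 TPM (174 counts) in control 1 and 45.9 TPM (260 counts) in control 2. Both apelin libraries were higher than both controls, but apelin 1 was only 1.035 times control 2. The intervals of these 2 libraries, 41.9 to 53.8 TPM in apelin 1 and 40.5 to 51.9 TPM in control 2, overlapped.

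**Figure D1:**
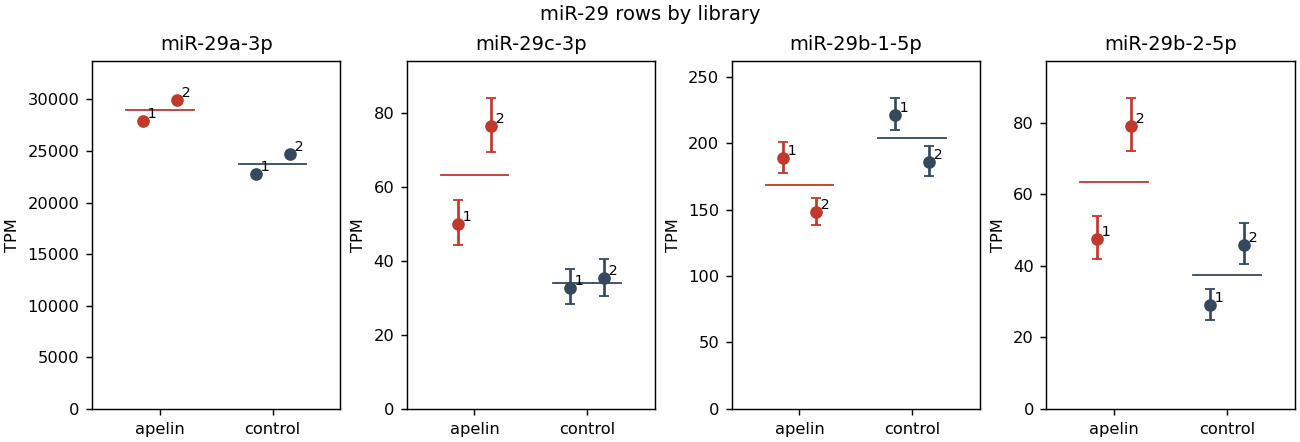
Level (TPM, linear axis from 0) of each miR-29 entry in the 2 apelin libraries and the 2 control libraries, with replicate numbers beside the points. Horizontal lines are group means and bars are 95% Poisson intervals of the count. miR-29a-3p, miR-29c-3p and miR-29b-2-5p have both apelin points above both control points, and for miR-29b-1-5p the groups overlap.

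The order of the mean levels was miR-29a-3p, miR-29b-1-5p, miR-29b-2-5p and miR-29c-3p. The final pair did not differ beyond their spread: miR-29b-2-5p was the higher in apelin 2 and control 2, and miR-29c-3p in apelin 1 and control 1. The lowest miR-29b-1-5p value, 148.2 TPM in apelin 2, was above every value of those 2 entries.

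None of the 4 miR-29 entries passed the edgeR test between apelin and control cells. The test was edgeR's quasi-likelihood test over the 263 entries with a mean of at least 10 TPM, with Benjamini-Hochberg adjustment and a threshold of 0.05. It called 0 of the 263 entries (0%), with 15 (5.7%) at an unadjusted p under 0.05, miR-29a-3p among them. All 4 miR-29 entries were among the entries tested. DESeq2 called 53 entries (20.2%), 1 of them in the miR-29 family and 30 of them at 0 in some library. The miR-29 entries were above 0 in every library. With limma on log2(TPM + 1) 4 entries (1.52%) were called, with 0 in the family. Whether the 2 libraries of a group stem from separate cultures is not in the labels, so the p-values reflect only the spread between libraries, which may be technical.

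miR-29a-3p averaged 28925 ± 1461 TPM with apelin and 23742 ± 1311 TPM in controls (SD, n = 2 each), a log2 fold change of 0.31 (SE 0.092, 95% interval 0.012 to 0.60). Its unadjusted edgeR p was 0.0455 and its edgeR adjusted p was 0.627. The unadjusted edgeR p was 0.0645 with DESeq2 size factors and 0.103 with no filter, against 0.0343 with unscaled library totals. The DESeq2 test gave an unadjusted p of 0.0139. Without apelin 2 the log2 fold change was 0.15. Among all tested entries the median log2 fold change was -0.018, and 24.0% had a higher value than miR-29a-3p.

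For miR-29c-3p the means were 63.1 ± 18.6 TPM with apelin and 34.04 ± 1.82 TPM in controls (SD, n = 2 each). The log2 fold change was 0.92 (SE 0.34, 95% interval -0.16 to 2.01, edgeR adjusted p = 0.627), the highest of the family and 17th from the top of the 263. This was the family member that DESeq2 called, at an adjusted p of 0.0499, just under the threshold. Without apelin 2 the edgeR log2 fold change was 0.47.

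miR-29b-2-5p averaged 63.3 ± 22.3 TPM with apelin and 37.4 ± 12.01 TPM in controls (SD, n = 2 each). Its log2 fold change was 0.80 (SE 0.45, 95% interval -0.66 to 2.26, edgeR adjusted p = 0.627). It was 0.27 without apelin 2 and 0.51 without control 1. miR-29b-1-5p averaged 168.5 ± 28.7 TPM with apelin and 203.8 ± 24.98 TPM in controls (SD, n = 2 each), a log2 fold change of -0.26 (SE 0.21, 95% interval -0.94 to 0.42, edgeR adjusted p = 0.667). Without control 1 it was -0.12. The intervals of both 5p arms include 0 as well as changes in either direction.

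**Figure D2:**
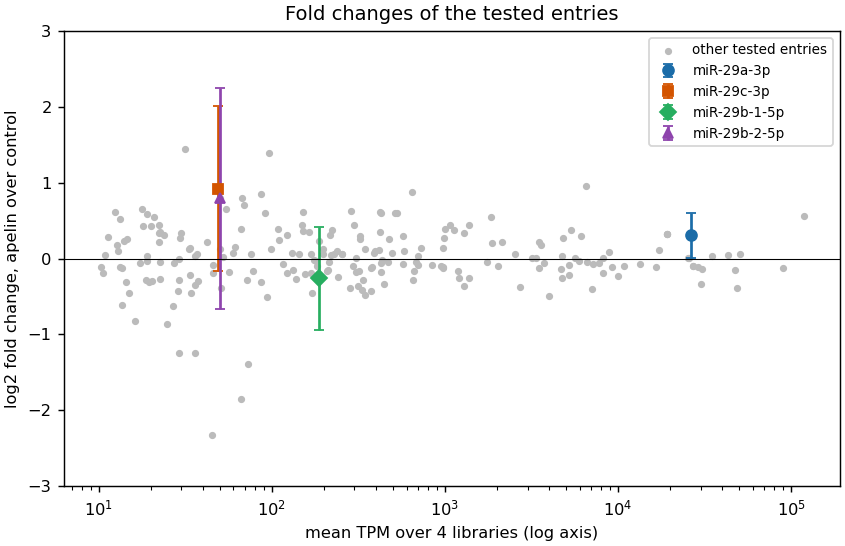
Log2 fold change of apelin over control from edgeR against the mean TPM over the 4 libraries (log axis), for tested entries (grey) and the 4 miR-29 entries (coloured, with 95% intervals). Of the 263 tested entries 228 are shown, and 35 lie beyond the axis limits of -3 and 3. miR-29a-3p has the narrowest interval, 0.012 to 0.60, and the intervals of the other 3 miR-29 entries include 0.

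In 3 of the 4 miR-29 entries both apelin libraries lay above both controls in TPM. Of all 263 tested entries 20.9% did so, and 17.5% had both apelin libraries below both controls. The miR-29 entries share libraries, so they are not independent of each other, and each stood highest (miR-29a-3p, miR-29c-3p, miR-29b-2-5p) or lowest (miR-29b-1-5p) in apelin 2.

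**Figure D3:**
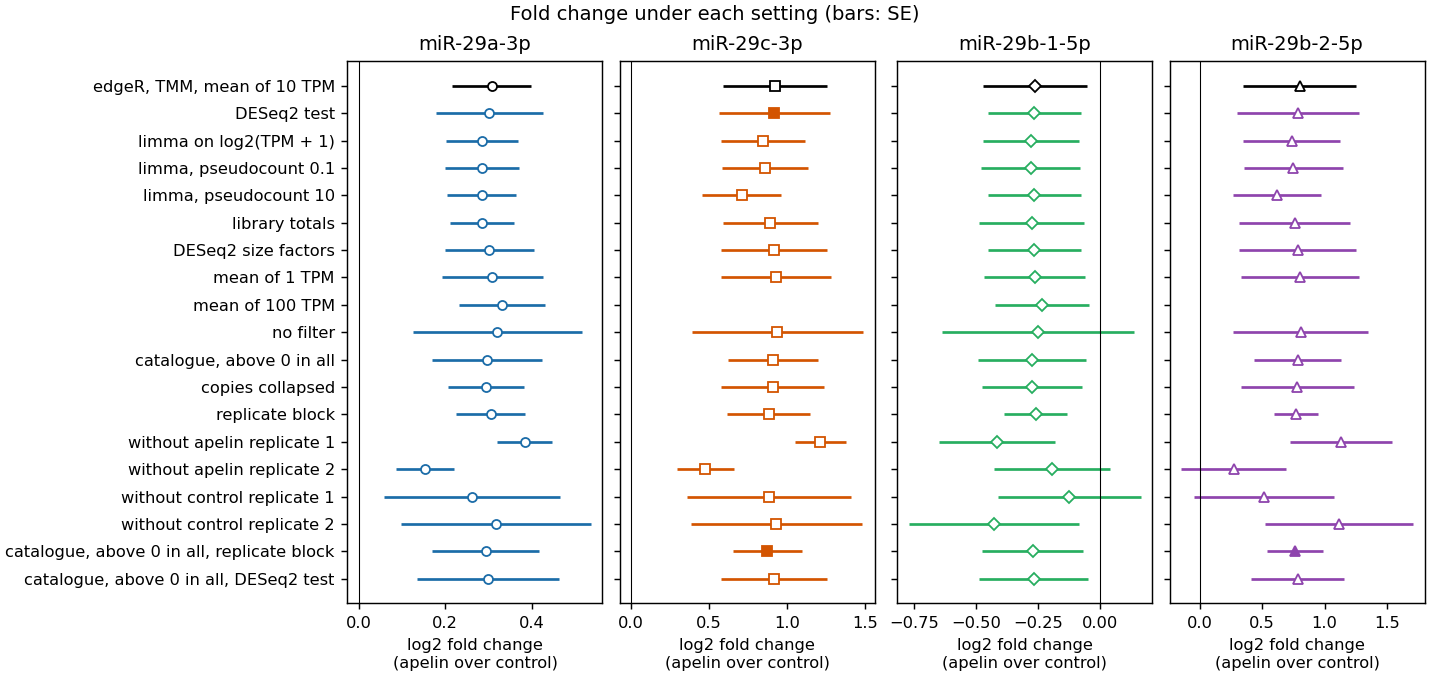
Log2 fold change of apelin over control (bars, SE) for each miR-29 entry under each setting tried, with filled symbols where the adjusted p was under 0.05. Every value for miR-29a-3p, miR-29c-3p and miR-29b-2-5p lies above 0 and every value for miR-29b-1-5p lies below it. The lowest for miR-29a-3p and miR-29c-3p, 0.15 and 0.47, are those without apelin replicate 2.

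Ratios between entries of one library need no scaling between libraries, so they were used to compare the members with each other. Read as counts, miR-29c-3p amounted to 0.179% of miR-29a-3p in apelin 1 and 0.255% in apelin 2, against 0.144% in control 1 and 0.143% in control 2. The log2 ratio of miR-29c-3p to miR-29a-3p averaged -8.87 ± 0.36 with apelin and -9.45 ± 0.0028 in controls (SD, n = 2 each), a difference of 0.58, which was 0.32 without apelin 2. Both apelin ratios were higher than both control ratios (exact permutation test, two-sided, p = 0.333, the smallest that 2 against 2 libraries can give, and 0.416 adjusted over 5 measures). The 2 miRNAs differ by the single substitution C10U, and the sources used here do not give how the authors' counting assigned a read with 1 mismatch. The part of such reads in the miR-29c-3p counts was not tested.

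The ratio of the pair on chromosome 1 did not differ between the groups beyond its spread. The log2 ratio of miR-29b-2-5p to miR-29c-3p was -0.072 and 0.052 in apelin 1 and 2, against -0.18 and 0.38 in control 1 and 2. The groups overlapped, and the difference of -0.11 lay within the SD of the controls, 0.39 (exact permutation test, two-sided, p = 1.0). It was 0.17 without control 2.

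On chromosome 7 the ratio of the 2 entries was lower with apelin in both libraries. The log2 ratio of miR-29b-1-5p to miR-29a-3p was -7.21 and -7.66 in apelin 1 and 2, against -6.69 and -7.05 in control 1 and 2, a difference of -0.56. Without apelin 2 it was -0.34. No value overlapped, though the exact permutation test could give no p under 0.333 (two-sided, p = 0.333, and 0.416 adjusted). The gap between the nearest libraries, apelin 1 and control 2, was smaller than the gap between the 2 apelin libraries.

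Between the 5p arms, the log2 ratio of miR-29b-2-5p to miR-29b-1-5p was -1.99 and -0.91 in apelin 1 and 2, against -2.94 and -2.02 in control 1 and 2. The mean difference was 1.03, and apelin 1 lay only just above control 2. The exact permutation test gave the same p as before (two-sided, p = 0.333, 0.416 adjusted), and the difference was 0.49 without apelin 2 and 0.57 without control 1. The summed level of the seed-sharing entries, miR-29a-3p and miR-29c-3p, was 28989 ± 1479 TPM with apelin and 23776 ± 1313 TPM in controls (SD, n = 2 each), 1.22 times as high (exact permutation test, two-sided, p = 0.333). Since miR-29c-3p is so small a part, this sum restates miR-29a-3p.

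**Figure D4:**
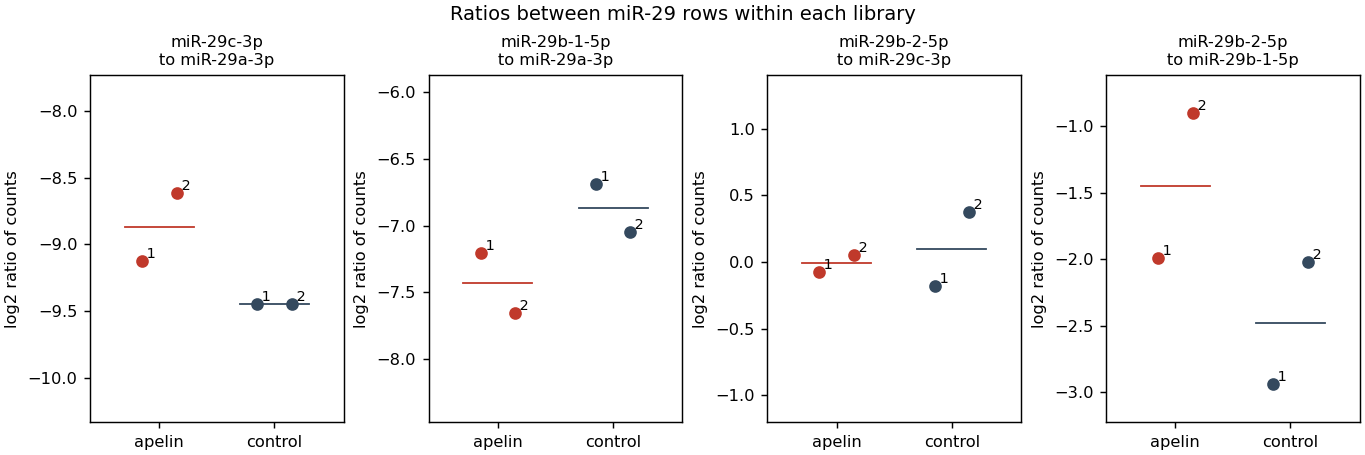
Log2 ratio of counts between miR-29 entries within each of the 2 apelin and 2 control libraries, with replicate numbers, and lines at the group means. Each panel spans the same width in log2 units. The ratio of miR-29b-2-5p to miR-29c-3p overlaps between groups, and in the other 3 panels the groups are apart.

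Likeness to miR-29a-3p was measured as the largest difference over the 4 libraries in log2(TPM + 1), each entry centred on its own mean, among the 207 tested catalogue miRNAs that were above 0 in every library. The nearest outside the family was miR-374a-5p (largest difference 0.029), at 233.9 and 244.3 TPM in apelin 1 and 2, against 184.5 and 207.3 TPM in control 1 and 2. Next came miR-148b-3p (0.039), miR-345-5p (0.047) and miR-24-3p (0.057), and miR-24-2-3p shares all its counts with miR-24-3p. In the order of likeness to miR-29a-3p, miR-29b-1-5p was 169th, miR-29c-3p 171st and miR-29b-2-5p 173rd of the entries compared. The measure counts the size of a deviation as well as its direction. Centred values of miR-29a-3p were 0.091 and 0.19 in apelin 1 and 2, and -0.20 and -0.086 in control 1 and 2. Those of miR-29c-3p had the same signs, at 0.12, 0.72, -0.47 and -0.37. For miR-29b-1-5p, at 0.035, -0.31, 0.26 and 0.014, the sign differed in apelin 2 and both controls. From miR-29c-3p, miR-29b-2-5p was 14th (largest difference 0.33), miR-29a-3p was 43rd and miR-29b-1-5p was 176th. These places are a description over 4 libraries.

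**Figure D5:**
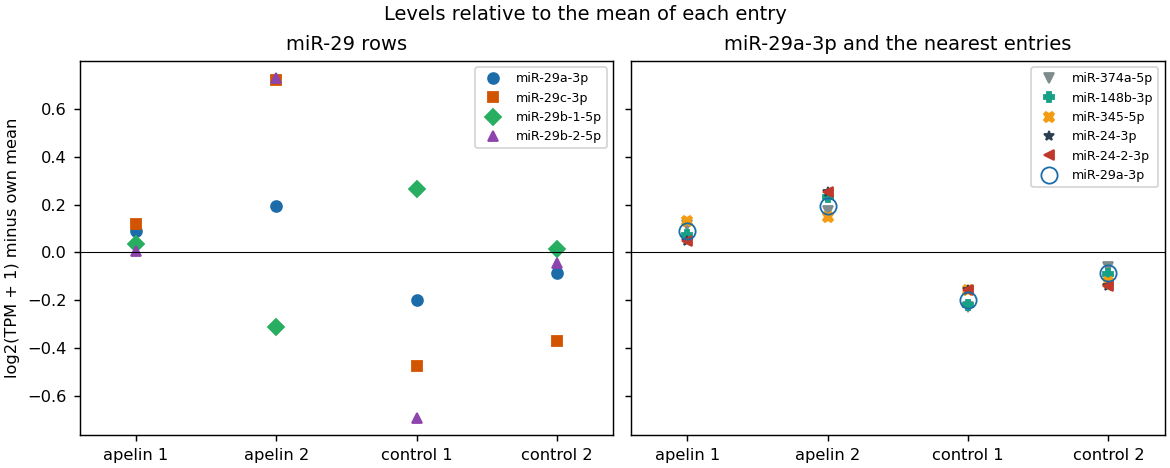
Log2(TPM + 1) minus the entry's own mean over the 4 libraries, for the miR-29 entries (left) and for miR-29a-3p with the nearest entries outside the family (right). In apelin 2, miR-29c-3p and miR-29b-2-5p lie together above miR-29a-3p, while miR-29b-1-5p lies below 0.

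Other miRNAs reported to repress collagens, connective tissue growth factor, TGF-beta receptors or related genes formed a list of 23 names, of which 21 were listed and 19 tested. In edgeR 0 of the 19 were called, 1 was at an unadjusted p under 0.05, and limma called 0. DESeq2 called 4 of the 19 (miR-19a-3p, miR-19b-2-3p, miR-30d-5p and miR-200c-3p), against 20.2% of all tested entries. That share is not like for like, since 30 of the 53 entries called were at 0 in some library. Every one of the 19 was above 0 in every library. The median log2 fold change of the 19 was 0.096, against -0.018 over all 263 tested entries. Both apelin libraries lay above both controls for 7 of the 19 and below both for 5, where over all tested entries the shares were 20.9% and 17.5%. At one end of the list was miR-19a-3p, of the miR-17-92 cluster (log2 fold change 0.86, SE 0.20, edgeR adjusted p = 0.627), and at the other miR-196a-5p, from the HOX clusters (-0.62, SE 0.36, edgeR adjusted p = 0.627). Of 7 names known to promote fibrosis 3 were tested, miR-21-5p (0.57), miR-34a-5p (0.23) and miR-192-5p (0.24), and edgeR, DESeq2 and limma called 0 of them, with 0 at an unadjusted edgeR p under 0.05. Both apelin libraries lay above both controls for 3 of these 3, against 20.9% of all tested entries. The 3 share libraries, so they are not independent of each other.

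No mRNA was measured in these libraries, so targets are given from sequence only. A site for the shared seed is the 7 letters TGGTGCT on the mRNA strand, or the 8 letters TGGTGCTA where an A follows. With 1 transcript a gene from GENCODE release 29, 12.8% of 18873 3′ UTRs held the 7 letters and 2.82% the 8 letters. Of 18 genes chosen as reported miR-29 targets or for the study's subject, 16 held the 7 letters, which is no finding, since most were chosen as targets. The UTR of ELN, which encodes elastin, held 3, and 0.0903% of UTRs within 20% of its length, itself included, held at least as many. That of COL3A1, which encodes type III collagen, held 2, and 0.556% of UTRs of like length held at least as many. The other genes with more than 1 match were COL5A1 (0.148%), DNMT3A (0.81%), LOX (0.861%) and FBN1 (3.22%). These shares are no finding either, since the genes were chosen as reported targets. For the 10 genes with a single match, COL1A1 and APLNR among them, 9.2% to 24.4% of UTRs of like length held at least 1. The share was 19.3% for COL1A1, a chain of type I collagen, and 19.6% for APLNR, the apelin receptor. The UTRs of APLN, which encodes apelin, and of VEGFC, the lymphatic growth factor of the study's title, held none in the transcripts used, the one of VEGFC being 388 bases long.

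Sites in the 3′ UTRs of 3 genes are shown because they stand for the family's collagen targets and for the receptor of the peptide given (GENCODE release 29, GRCh38, mRNA strand, match in capitals at the 3′ end of each window).
COL1A1, chr17:50184572-50184597, minus strand: gggtggggagggaatcacTGGTGCTA
COL3A1, chr2:189011998-189012023, plus strand: aatttcaaaatgtctcaaTGGTGCTA
APLNR, chr11:57234803-57234828, minus strand: gatttctttcttgggcacTGGTGCTA
All 3 windows end in the 8 letters, of which the first 7 pair with bases 2 to 8 of miR-29a-3p and miR-29c-3p alike. A match of letters does not show that a site is used in PC-3 cells.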

How the data were processed

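The authors deposited 1 table with raw read counts, TPM values and a length for each listed miRNA in 2 apelin and 2 control libraries. The submitters' processing notes name Trimmomatic 0.30 and DESeq2, with no role. The sources used here do not name the aligner, miRNA catalogue or build. The deposited TPM values equal the counts per 1000000 of each library total, to within 0.151. Columns were matched to samples by title. The counts were tested as apelin over control with edgeR 4.0.16 (TMM, quasi-likelihood test, mean of at least 10 TPM, worth 53.2 to 60.1 counts), adjusted over all 263 tested entries, in R 4.3.3. SE was taken from the F statistic. DESeq2 1.42.0, limma 3.58.1, other scalings and filters, a replicate block and leaving out each library were alternatives. The scripts were tested on simulated data. Ratios used counts and exact permutation tests (scipy 1.17.1). The summed 3p level and the ratio of miR-29c-3p to miR-29a-3p were planned, and the other ratios were added later. No miR-29 entry shared all its counts with another entry. Every miR-29 entry is named, as are the 5 entries most like miR-29a-3p. Members, lists and target genes were chosen with earlier results of these data known.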

Additional observations from a re-analysis of the deposited data

How the results depend on the processing

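Each of the 4 miR-29 log2 fold changes kept its sign in every setting that gave a value (18 for miR-29a-3p and miR-29b-1-5p, 17 for miR-29c-3p and miR-29b-2-5p, which a mean of 100 TPM left out). Leaving out a library moved them most, to 0.15 to 0.38 for miR-29a-3p, 0.47 to 1.21 for miR-29c-3p, 0.27 to 1.13 for miR-29b-2-5p and -0.43 to -0.12 for miR-29b-1-5p. The count of called miR-29 entries, 0 in edgeR, was 1 with DESeq2 (miR-29c-3p, 0.92). It was 2 with a replicate block on the 207 catalogue miRNAs listed above 0 in every library, a setting added after the data were seen (miR-29c-3p, 0.87, edgeR adjusted p = 0.00808, and miR-29b-2-5p, 0.76, edgeR adjusted p = 0.0163). That fit had 207 degrees of freedom an entry, against 2.91 in the unblocked edgeR test of the 263 entries. Its p-values therefore rest on a spread pooled over entries and do not measure the spread of these 2. With the block on all 263 entries the count of called miR-29 entries was 0. With DESeq2 on the 207, also added, that count was 0 (miR-29c-3p, adjusted p = 0.174). Nothing in the labels ties same-numbered libraries together, and the deviations of same-numbered libraries correlated at 0.318 over these miRNAs. The count of all called entries, 0 in edgeR, was 53 with DESeq2 (30 at 0 in some library), 4 with limma (5 and 4 at pseudocounts of 0.1 and 10), 4 at a mean of 100 TPM, 52 with no filter (51 at 0 in some library), 30 with the block and 0 with DESeq2 on the 207, and from 0 to 19 when a library was left out. Of the calls without control 1 or control 2, all were at 0 in some library. The difference in the log2 ratio of miR-29b-2-5p to miR-29c-3p was -0.39 to 0.17 with a library left out, and turned to 0.17 without control 2. The cause of these shifts was not tested, beyond the fewer samples. Taking the replicate numbers as pairs cannot change the ratio differences or the difference in the summed 3p level. The mean of the pair differences equals the difference of the group means. The planned ratios of miR-29b-3p to miR-29a-3p and of miR-29a-3p to miR-29a-5p, and the sum over copy-named rows, were not run, since the rows they need were not among those used here. Counting error is widest for miR-29c-3p and miR-29b-2-5p, at 174 to 451 counts a library, though their apelin libraries differed by more than it.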

Other observations

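By the same measure of likeness, the entries nearest to the other miR-29 members were different ones. Nearest to miR-29c-3p was miR-19a-3p (largest difference 0.18), with 99.95 and 120.7 TPM in apelin 1 and 2, against 60.9 and 63.0 TPM in control 1 and 2, followed by miR-96-5p (0.19) and miR-21-5p (0.20). Nearest to miR-29b-2-5p was miR-15a-5p (0.18), with 67.5 and 102.3 TPM in apelin 1 and 2, against 46.2 and 60.8 TPM in control 1 and 2. Nearest to miR-29b-1-5p was miR-615-3p (0.044), with 340.4 and 263.6 TPM in apelin 1 and 2, against 412.0 and 330.9 TPM in control 1 and 2. The edgeR adjusted p of these 5 entries ran from 0.627 to 0.664.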
